A study of Rattus norvegicus with 12 samples.

Results

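Cisplatin given alone was compared with vehicle in rat dorsal root ganglia, over all genes, in 8 of the series' 12 libraries: 4 from vehicle rats and 4 from cisplatin rats, chosen by their labelled treatment alone. All rats were wild-type Sprague Dawley, and their age and sex are not given in the labels. Rats of the vehicle group received saline that held 0.1% Tween 20 and 1% DMSO. Cisplatin rats had 3 mg/kg of cisplatin, a platinum chemotherapy drug, dissolved in saline and injected into the peritoneum at 2 mL/kg on days 0, 7 and 14. The labels do not say whether the cisplatin rats also had Tween 20 and DMSO, so these 2 vehicle components and the drug cannot be told apart. The remaining 4 libraries, from rats given the same cisplatin and daily CYM-5478 from day -1 to 20, entered the fit to share its estimate of the spread. CYM-5478 activates S1P2, a receptor for sphingosine 1-phosphate. Its dose is 0.1 mg/kg in the sample labels and 1 mg/kg in the protocol, and no group had it without cisplatin. Each library is 1 labelled sample, and the labels do not say whether ganglia of several levels or rats were pooled.

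A dorsal root ganglion holds the cell bodies of the sensory neurons that report touch, pain, temperature and limb position. Satellite glia wrap each cell body, Schwann cells ensheathe the axons, and vessels, connective tissue and macrophages lie between them. Platinum drugs reach these ganglia readily because their vessels are leaky, bind DNA there, and cause a sensory neuropathy in patients. Bulk RNA from whole ganglia cannot separate fewer cells of a type from less RNA per cell, and this holds for each gene described here.

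The libraries carried the markers that define a sensory ganglion. Over the 8 libraries, the intermediate filament gene Prph averaged 500.1 FPKM in vehicle and 324 in cisplatin, the transcription factor Pou4f1 22.9 and 13.1, its partner Isl1 14.4 and 8.4, and the nociceptor sodium channel Scn10a 65.9 and 45.5. FPKM are fragment counts divided by transcript length and library size. Absolute depth is unknown, and the deposited values of a library summed, in units of 1000 FPKM, to 593 to 609 in vehicle and 641 to 676 in cisplatin. Levels below are scaled FPKM summed over a gene's transcripts, and a log2 change is cisplatin minus vehicle on log2(FPKM + 0.5), which understates changes of low genes. Markers of other tissues varied between libraries. The score of a gene list averages, over its genes, how far a library lies from the vehicle mean in log2 units. For skeletal muscle it was -0.36, 1.23, 0.57 and -0.25 in cisplatin replicates 1 to 4 and -0.09 to 0.17 in vehicle. For neutrophils it was 0.37, 0.59, -0.21 and 1.38 in cisplatin and -0.54 to 0.77 in vehicle.

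Of 16753 genes tested, 1337 (7.98%) fell with cisplatin and 457 (2.73%) rose, 10.7% in all, at an adjusted p under 0.05 by limma. The fall was the larger change: the median fold of cisplatin over vehicle was 0.717 among genes that fell and 1.25 among genes that rose. A change of 1.5-fold or more was fitted for 410 of the falls and 38 of the rises, and of 2-fold or more for 14 and 4. The groups were fully apart, with 4 libraries each, in 1252 of the falls and 420 of the rises. Over all tested genes, called or not, the 4 cisplatin libraries lay below all vehicle libraries in 11.5% and above them in 6.81%. Calls were most frequent among abundant genes. Among the 20% of genes of highest mean level, from 30.3 FPKM up, 14.3% of genes fell and 6.36% rose, and among the 20% of lowest level, up to 2.34 FPKM, 2.09% fell and 0.627% rose. Protein-coding genes were called more often (11.5% of 14699) than transcripts of unknown coding potential (5.15% of 1768). When the values were rescaled to TPM, which divides by the larger FPKM sum of the cisplatin libraries, the median change of all tested genes moved from 0.02 to -0.09, and the median of every gene list moved down with it. With TPM 3177 genes fell and 117 rose (3.55% of calls higher, against 25.5% without this scaling).

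How many genes passed the threshold depended on single libraries, while the fitted changes moved less. Without cisplatin replicate 4 none passed (lowest limma adjusted p 0.0525, 4086 genes at an unadjusted p under 0.05). Without vehicle replicate 2 there were 3, namely Nrarp, Hcn2 and Cyp4f6, the last chosen after its values were seen. The count was 643 without cisplatin replicate 1 and 1167 without vehicle replicate 3, and the 8 libraries fitted alone gave 961. All 1794 genes kept the sign of their change in each of these fits. The fits reuse most of the libraries on which these genes were chosen, and the 8-library fit leaves each log2 change as it was. Kept signs are therefore no separate support. Leaving out any 1 library, the log2 change of Nrarp stayed between -0.85 and -0.74, that of Hcn2 between -0.89 and -0.77, that of Eef1a2 between -0.97 and -0.77 and that of Ramp1 between 0.46 and 0.58. Cyp4f6, a cytochrome P450 of fatty acid metabolism, stood at 3.81, 7.34, 4.63 and 4.17 FPKM in the vehicle libraries and 6.79, 7.82, 7.79 and 6.94 in the cisplatin libraries (log2 change 0.55, SE 0.15), with vehicle replicate 2 inside the cisplatin range.

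**Figure D1:**
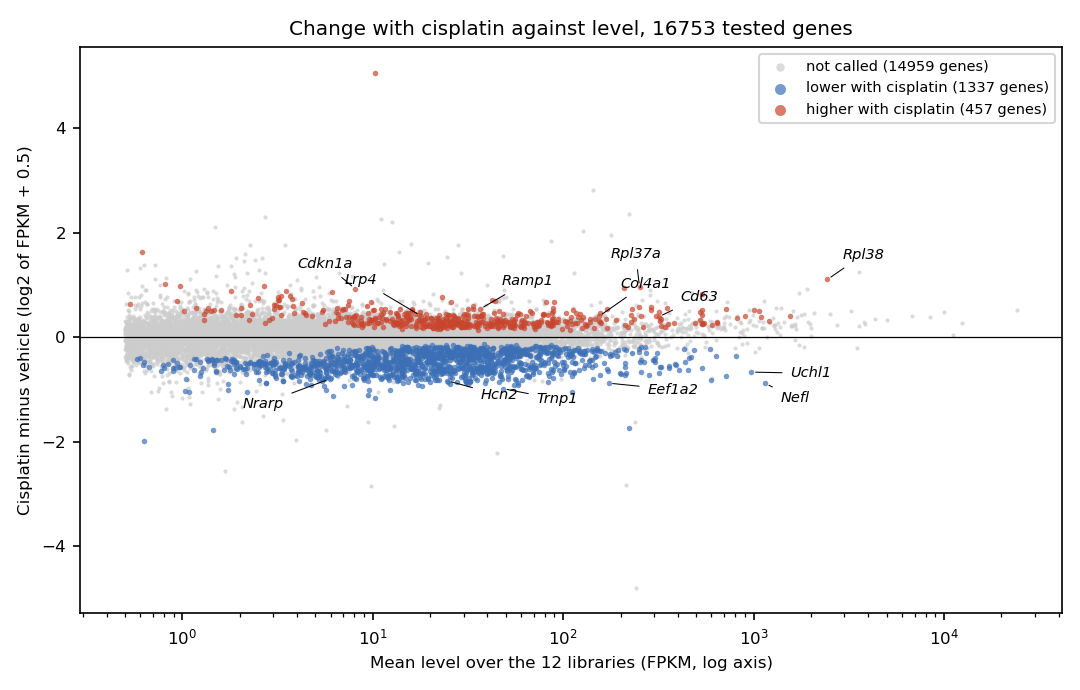
Each point is 1 of 16753 tested genes, by its mean level over the 12 libraries (FPKM, log axis) and its log2 change with cisplatin. The 1337 genes called lower (blue) mostly lie further from 0 than the 457 called higher (red), apart from a few single points.

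The smallest p among genes that fell belonged to Nrarp, a feedback inhibitor of Notch signalling, and Hcn2, a pacemaker channel that sets how often pain-sensing neurons fire. Nrarp stood at 7.63, 7.95, 7.42 and 8.73 FPKM in the vehicle libraries and 4.32, 3.74, 4.89 and 4.46 in the cisplatin libraries (log2 change -0.80, SE 0.08). Hcn2 stood at 30.2, 35.6, 27.8 and 31.8 FPKM in the vehicle libraries and 15.8, 19.2, 19.2 and 15.5 in the cisplatin libraries (log2 change -0.83, SE 0.09). For both genes the highest cisplatin library lay well under the lowest vehicle library, and limma's adjusted p was 0.0124, the lowest of the comparison. Among genes that rose, Ramp1, which pairs with the receptor Calcrl to form the receptor for the pain peptide CGRP, and Lrp4, a co-receptor for agrin and a modulator of Wnt signalling, had the smallest p. Ramp1 was at 34.3, 32.6, 26.4 and 32.5 FPKM in the vehicle libraries and 47.2, 47, 43.2 and 45.4 in the cisplatin libraries (log2 change 0.54, SE 0.07). Lrp4 was at 15.7, 14.4, 15.3 and 16.2 FPKM in vehicle and 20.8, 19.7, 21.9 and 20.2 in cisplatin (log2 change 0.41, SE 0.05). Here too no cisplatin library overlapped a vehicle library. The promoters of these genes (RefSeq, build GRCr8, 250 bases before to 50 after the annotated start) are shown because these genes separated the groups best, and the table holds 3 of the 4. They were searched on both strands for 5 motifs: TGACGTCA, the cAMP response element; CACGTG, an E-box; AGAACA, a glucocorticoid receptor half-site; ACATGTC, a p53 half-site variant; and GGGCGG, a GC box. Capitals mark matches.
Nrarp (chr3:28390495-28390794, plus strand): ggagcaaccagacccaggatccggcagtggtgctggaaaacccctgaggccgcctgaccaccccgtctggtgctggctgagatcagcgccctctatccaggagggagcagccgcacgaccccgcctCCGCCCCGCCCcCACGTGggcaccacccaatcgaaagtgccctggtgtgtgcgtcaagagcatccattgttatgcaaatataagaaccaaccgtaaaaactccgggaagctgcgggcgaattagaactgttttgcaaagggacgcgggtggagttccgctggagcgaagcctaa
Hcn2 (chr7:10639408-10639707, minus strand): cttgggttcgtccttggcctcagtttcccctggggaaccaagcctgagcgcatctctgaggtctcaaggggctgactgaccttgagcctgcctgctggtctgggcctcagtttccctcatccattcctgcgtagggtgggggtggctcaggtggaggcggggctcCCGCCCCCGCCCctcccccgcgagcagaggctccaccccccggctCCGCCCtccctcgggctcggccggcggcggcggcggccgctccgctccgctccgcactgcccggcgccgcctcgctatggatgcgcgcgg
Ramp1 (chr9:99212866-99213165, plus strand): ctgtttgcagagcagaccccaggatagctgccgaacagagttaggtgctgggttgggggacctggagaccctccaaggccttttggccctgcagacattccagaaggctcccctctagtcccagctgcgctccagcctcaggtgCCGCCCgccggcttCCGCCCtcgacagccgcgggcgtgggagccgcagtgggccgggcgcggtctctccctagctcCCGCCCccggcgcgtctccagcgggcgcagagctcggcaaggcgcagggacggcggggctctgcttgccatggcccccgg
The Nrarp promoter held 1 E-box and 2 GC boxes, which share a base, and those of Hcn2 and Ramp1 held 3 GC boxes each, a pair of them side by side in Hcn2. GC boxes are common: 33.1% of 33469 RefSeq promoters hold one, 59.5% of the 11590 promoters matched to a tested gene, 66.0% of the 1004 matched to a gene that fell and 64.6% of the 345 matched to a gene that rose. The cAMP response element was in 5.18% of promoters of genes that fell, 2.90% of those of tested genes and 1.45% of those of genes that rose, which is 52 and 5 promoters in the called sets. E-boxes were in 8.17%, 8.65% and 11%, the glucocorticoid half-site in 11.8%, 12.8% and 11.3%, and the p53 variant in 0.896%, 1.25% and 2.03% of the same 3 sets. These shares describe letters in a window and were not tested.

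Other genes were named for the smallest p or the largest falls. Creg2 stood at 3.31, 4.61, 2.32 and 2.73 FPKM in vehicle and 1.17, 1.63, 1.63 and 0.763 in cisplatin (log2 change -1.05, SE 0.25), and Ldoc1 (log2 change -1.02, SE 0.17) and the apolipoprotein gene Apoc3 (log2 change -1.00, SE 0.24) fell as well. Ptprn2, a protein of the vesicles that store neuropeptides, stood at 7.43, 7.33, 6.36 and 7.26 FPKM in vehicle and 3.65, 4.19, 4.42 and 3.51 in cisplatin (log2 change -0.78, SE 0.09). Trnp1, a nuclear protein known from the growth of the cerebral cortex, was at 62.7, 76.9, 54.9 and 63.1 FPKM in vehicle and 32.5, 32.2, 29.7 and 34 in cisplatin (log2 change -0.98, SE 0.12), with cisplatin libraries close to each other. Nat8l, which makes N-acetylaspartate, fell by 0.92 (SE 0.16), Lynx1, a brake on nicotinic receptors, by 0.92 (SE 0.16) and Eef1a2, the elongation factor that mature neurons use, by 0.88 (SE 0.14) on the log2 scale. Eef1a2 was at 199, 267, 217 and 183 FPKM in vehicle and 92.5, 128, 142 and 109 in cisplatin. Its cisplatin libraries differed, with replicate 1 lowest and replicate 3 highest. Camk2n2, an inhibitor of the kinase CaMKII (log2 change -0.90, SE 0.22), Onecut2, a transcription factor (log2 change -0.94, SE 0.22), Tmem163, a zinc transporter of vesicles (log2 change -0.91, SE 0.15), Lrfn2, a synaptic adhesion protein (log2 change -0.89, SE 0.14), Mdga2, a regulator of synapse formation (log2 change -0.80, SE 0.12), and Lrp8, a receptor for reelin (log2 change -0.55, SE 0.09), fell as well. Some falls were smaller. Exoc1 of the exocyst fell by 0.44 (SE 0.06), Trappc1 of the transport complex TRAPP by 0.48 (SE 0.07) and Nans, which makes sialic acid, by 0.38 (SE 0.05). Nans was at 23.3, 25.6, 22.9 and 24.1 FPKM in vehicle and 18.2, 19.8, 17.1 and 18.2 in cisplatin, and this small change left a clear gap between the groups. Vstm2l (log2 change -0.92, SE 0.13), Gfod1 (log2 change -0.57, SE 0.08) and the low muscle and heart creatine kinase gene Ckmt2 (log2 change -1.02, SE 0.27) were also named by their p or size of change.

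**Figure D2:**
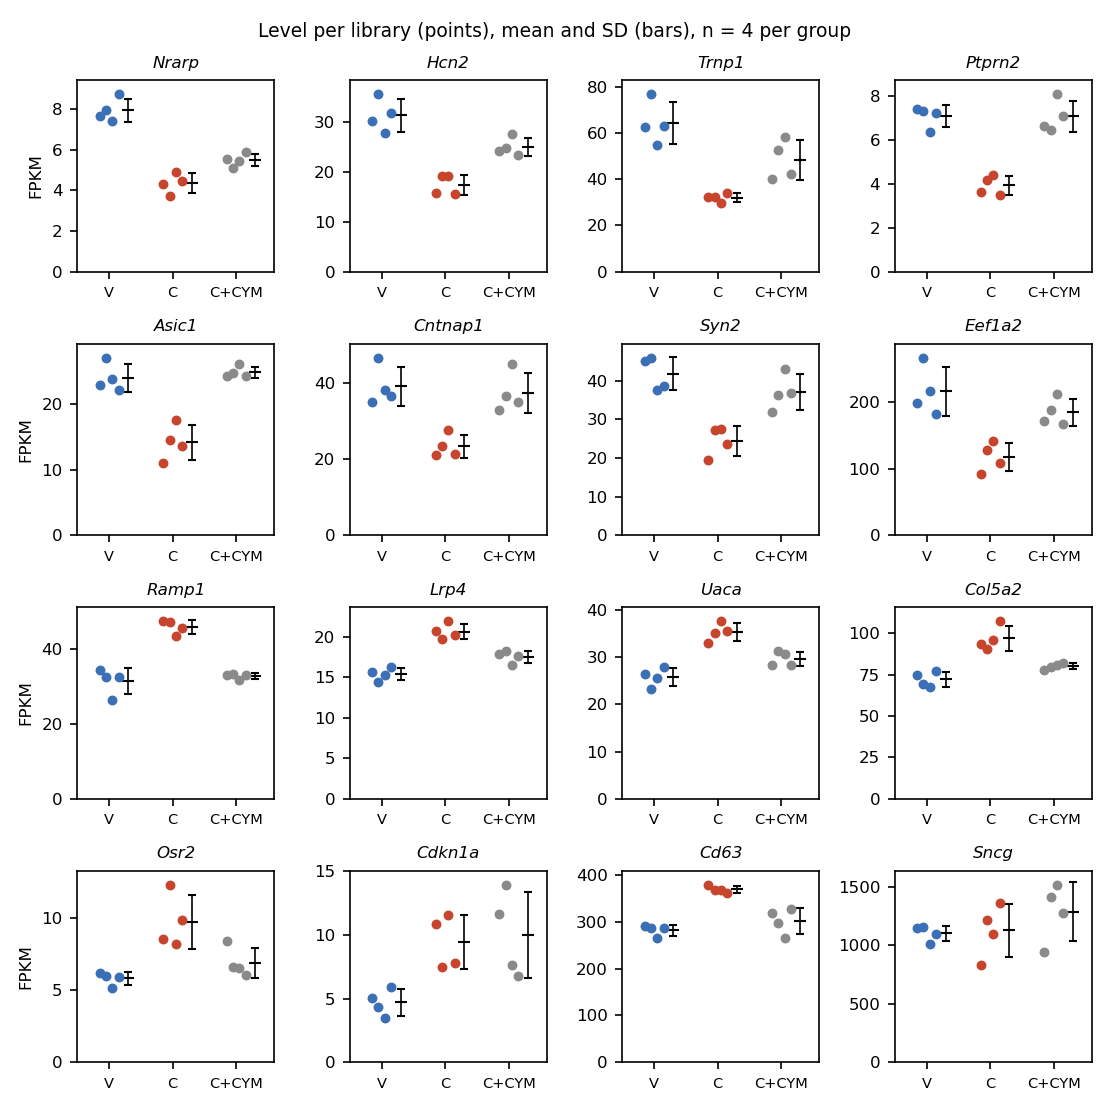
Levels of 16 genes in each library (FPKM, linear axes from 0), for vehicle (V), cisplatin (C) and cisplatin with CYM-5478 (C+CYM), with the mean and SD of 4 libraries beside the points. The first 8 genes are lower in every cisplatin library than in any vehicle library, the next 7 higher, and Sncg overlaps.

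Potassium channel genes, which set the resting potential and end each action potential, were the ion channel list with the most falls. Of 47 tested members 28 fell (59.6%, against 7.98% of all tested genes) and 0 rose (against 2.73%). Their median log2 change was -0.53, against 0.02 over all tested genes. Kcns3, a silent subunit that modifies Kv2 channels, stood at 22.9, 21.8, 21.8 and 18.7 FPKM in vehicle and 9.38, 12.7, 14.8 and 11.7 in cisplatin (log2 change -0.80, SE 0.12). Kcnd1, an A-type channel, stood at 37.2, 48.4, 37.9 and 36.1 FPKM in vehicle and 21.6, 26.3, 26.3 and 23.2 in cisplatin (log2 change -0.70, SE 0.11). Neither gene overlapped between groups, and vehicle replicate 2 was the highest library of Kcnd1. Kcnj10, the potassium channel of satellite glia (log2 change -0.50, SE 0.08), fell too. The most abundant member did not pass: Kcna1, the delayed rectifier beside the nodes, was at 107, 136, 137 and 97.4 FPKM in vehicle and 117, 124, 118 and 91.4 in cisplatin (limma adjusted p = 0.735). Kcnk1, a leak channel, was at 35.3, 43.5, 46.7 and 36.2 FPKM in vehicle and 41.1, 45.3, 46.8 and 37 in cisplatin (limma adjusted p = 0.724). In both genes the groups overlapped.

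Among 16 sodium channel genes 7 fell (43.8%, against 7.98% of all genes) and 0 rose (median -0.48). Scn8a, the main sodium channel of nodes, stood at 22.4, 32.7, 29.5 and 24.1 FPKM in vehicle and 11, 17.5, 19 and 13.5 in cisplatin (log2 change -0.83, SE 0.17). Scn9a, the channel whose loss abolishes pain in humans, was at 46.4, 50.6, 43.5 and 43.2 FPKM in vehicle and 24.7, 33.2, 31.3 and 31.9 in cisplatin (log2 change -0.60, SE 0.12). Groups were apart for both. Scn7a, a sodium-sensing channel of Schwann cells and the most abundant of the list, was at 248, 262, 370.4 and 287 FPKM in vehicle and 283, 261, 267 and 282 in cisplatin and did not pass (limma adjusted p = 0.681). Fgf14, a cytoplasmic partner of sodium channels, lay higher in all but 1 cisplatin library than in any vehicle library, at 6.76, 5.46, 5.46 and 6.27 FPKM in vehicle and 8.06, 8.08, 8.24 and 6.66 in cisplatin, without passing (limma adjusted p = 0.0585). Calcium channel subunits had 7 of 19 lower (36.8%, against 7.98% of all genes) and 0 higher (median -0.44). Cacng7, an auxiliary subunit (log2 change -0.73, SE 0.13), Cacna1b, the N-type channel of sensory terminals (log2 change -0.65, SE 0.13), and Cacna2d1, the subunit that gabapentin binds (log2 change -0.47, SE 0.09), fell.

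Channels opened by ligands, acid or force had 15 of 37 members lower (40.5%, against 7.98% of all genes) and 0 higher (median -0.38). Asic1, an acid-sensing channel, stood at 23, 27.1, 23.8 and 22.2 FPKM in vehicle and 11, 14.5, 17.6 and 13.6 in cisplatin (log2 change -0.75, SE 0.11). Every cisplatin library lay well under every vehicle library. Trpa1, the irritant channel, fell by 0.62 (SE 0.10). P2rx3, the ATP receptor of pain-sensing neurons and the most abundant of the list, was at 78.2, 84.9, 57.4 and 69.2 FPKM in vehicle and 46.8, 63, 53.9 and 56.8 in cisplatin, with overlapping groups (limma adjusted p = 0.139), and Piezo1, a force-gated channel found in many cell types, at 12.3, 10.2, 9.45 and 12.7 FPKM in vehicle and 13.9, 12.3, 14.6 and 13.6 in cisplatin (limma adjusted p = 0.0673). Receptor subunits for GABA and glutamate had 12 of 25 lower (48%, against 7.98% of all genes) and 0 higher (median -0.50). Gabra2 stood at 48.5, 68.9, 55.2 and 51.2 FPKM in vehicle and 21.2, 34.7, 38.9 and 30.2 in cisplatin (log2 change -0.85, SE 0.16), Gabbr2 of the metabotropic GABA receptor fell by 0.62 (SE 0.12) and the kainate receptor subunit Grik4 by 0.66 (SE 0.13). Gabbr1, the obligate partner of Gabbr2, was at 104, 128, 113 and 115 FPKM in vehicle and 100.4, 115, 106 and 104 in cisplatin and did not pass (limma adjusted p = 0.288).

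Synaptic vesicle and exocytosis genes, which act where sensory axons contact the spinal cord, held the second largest share of falls of the 59 lists, after the pan-neuronal list. Of 47 members 34 fell (72.3%, against 7.98% of all genes) and 1 rose (2.13%, against 2.73%), with a median of -0.54. Syn2, a synapsin that tethers vesicles, stood at 45.2, 46, 37.7 and 38.7 FPKM in vehicle and 19.4, 27.4, 27.5 and 23.5 in cisplatin (log2 change -0.77, SE 0.12). Napb, which recycles the fusion machinery, stood at 74.3, 93.1, 72.6 and 75.3 FPKM in vehicle and 39.3, 58.2, 51.5 and 42.8 in cisplatin (log2 change -0.72, SE 0.12). Groups were apart for both, with vehicle replicate 2 highest. Dnajc5, the chaperone of synaptic vesicles, fell less but evenly (log2 change -0.43, SE 0.06), and Slc17a7, which loads glutamate into vesicles, fell by 0.88 (SE 0.18). Sncg, a marker of sensory neurons and the most abundant synaptic gene here, was at 1147, 1156, 1012 and 1099.7 FPKM in vehicle and 830.0, 1222, 1098 and 1364 in cisplatin (limma adjusted p = 0.978), with both the lowest and the highest library in the cisplatin group.

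Cytoskeletal genes of the axon fell with them. Of 29 neurofilament, tubulin and microtubule genes, 17 fell (58.6%, against 7.98% of all genes) and 1 rose (3.45%, against 2.73%), with a median of -0.50. Tuba4a, a tubulin (log2 change -0.71, SE 0.13), Tppp3, which promotes microtubule assembly (log2 change -0.55, SE 0.11), Tubb2a (log2 change -0.47, SE 0.10) and the light neurofilament Nefl (log2 change -0.89, SE 0.22) fell. The medium neurofilament Nefm was at 569, 883, 831 and 568 FPKM in vehicle and 248, 465, 572 and 407 in cisplatin (log2 change -0.79, SE 0.24, limma adjusted p = 0.053). The most abundant tubulin gene Tuba1a was at 1668, 2085, 2115 and 1893 FPKM in vehicle and 1684, 1768, 1699.7 and 1646 in cisplatin (limma adjusted p = 0.313). Stmn1, which destabilises microtubules and is also a gene of dividing cells, rose from 326 ± 15.5 to 389 ± 14.6 FPKM (SD, n = 4 each), while its neuronal relative Stmn2, a regulator of axon growth, fell from 399.9 ± 54.6 to 269 ± 54.7 FPKM.

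Transport, survival and node genes showed the same direction in most called members. Of 34 genes of axonal transport motors and adaptors, 14 fell (41.2%, against 7.98% of all genes) and 1 rose (2.94%, against 2.73%), with a median of -0.24. The kinesin light chain Klc2 (log2 change -0.62, SE 0.13) and the dynein intermediate chain Dync1i1 (log2 change -0.69, SE 0.14) fell. The ubiquitous kinesin heavy chain Kif5b rose, at 193, 195, 197 and 187 FPKM in vehicle and 215, 249.7, 222 and 223 in cisplatin (log2 change 0.23, SE 0.05). Every cisplatin library of Kif5b lay above every vehicle library. Of 23 genes of axon survival and degeneration, 8 fell (34.8%, against 7.98% of all genes) and 0 rose (median -0.16). Both the NAD-making enzyme Nmnat2, which keeps axons alive (log2 change -0.50, SE 0.10), and Sarm1, the NADase that destroys them (log2 change -0.61, SE 0.12), fell, as did Mapk10, a stress kinase of neurons (log2 change -0.60, SE 0.13). Of 19 genes of the axon initial segment and node of Ranvier, 11 fell (57.9%, against 7.98% of all genes) and 0 rose (median -0.44). The adhesion proteins that flank the node moved together: Cntnap1 stood at 35.1, 46.6, 38.3 and 36.7 FPKM in vehicle and 21.1, 23.3, 27.7 and 21.4 in cisplatin (log2 change -0.73, SE 0.12), Cntn1, its partner, fell by 0.86 (SE 0.15), and Cntn2, found beside them, by 0.69 (SE 0.11).

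**Figure D3:**
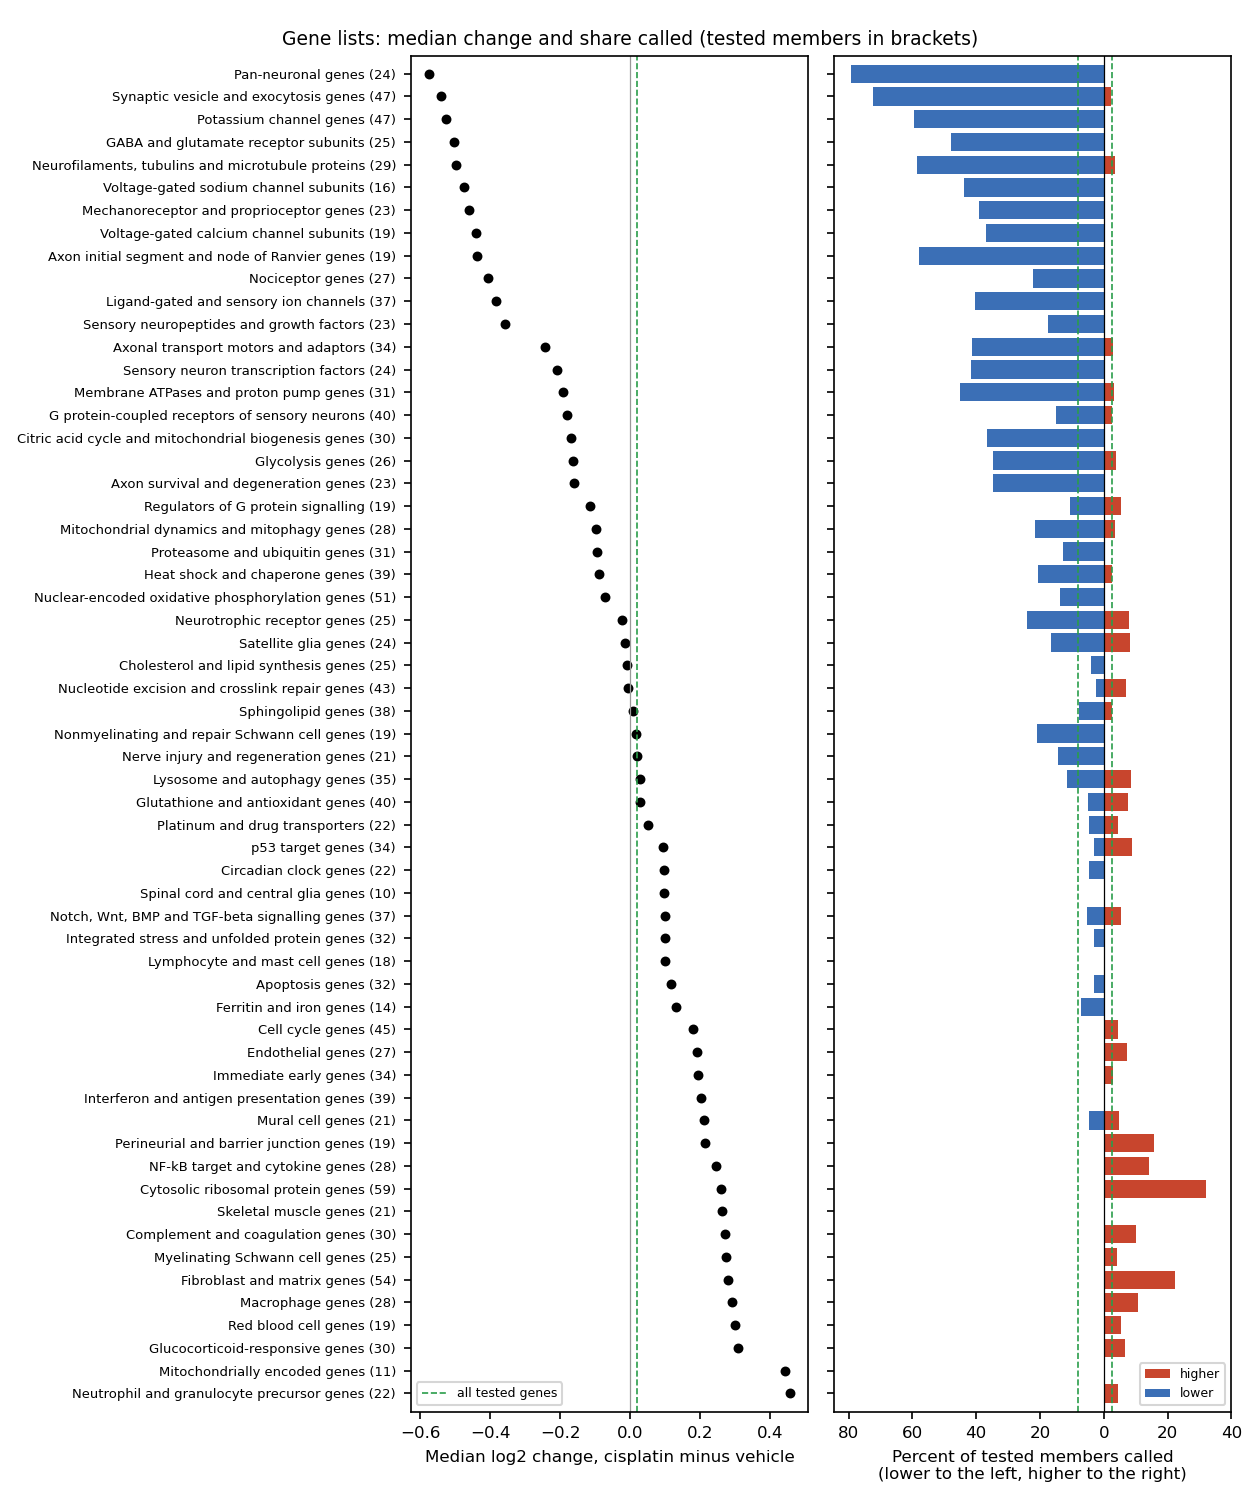
Median log2 change (left) and percent of tested members called lower or higher (right) for 59 gene lists, ordered by median, with the number of tested members in brackets. Dashed lines mark all tested genes (median 0.02, 7.98% lower, 2.73% higher). Lists of neuronal genes lie at the top, with medians down to -0.58.

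Of 24 sensory neuron transcription factors, 10 fell (41.7%, against 7.98% of all genes) and 0 rose (median -0.21). The POU factors Pou4f1, at 20.8, 27.7, 21.9 and 21.4 FPKM in vehicle and 9.84, 14.5, 14.2 and 13.7 in cisplatin (log2 change -0.80, SE 0.13), and Pou4f3 (log2 change -0.83, SE 0.15) specify these neurons, as does Isl1, which fell by 0.76 (SE 0.18). Prdm12, which specifies pain-sensing neurons, fell by 0.82 (SE 0.16). Markers of pain-sensing neurons had 6 of 27 lower (22.2%, median -0.41) and markers of touch and position neurons 9 of 23 (39.1%, median -0.46), against 7.98% of all genes. None was higher in either list. Whether the 2 classes differ was not tested.

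Receptors were mixed. Among receptors for growth factors, 6 of 25 fell (24%, against 7.98% of all genes) and 2 rose (8%, against 2.73%), with a median of -0.02. Ngfr, the low-affinity neurotrophin receptor, stood at 124, 156, 123 and 126 FPKM in vehicle and 62.2, 90.3, 96.9 and 85 in cisplatin (log2 change -0.67, SE 0.13). Ntrk2, which binds the trophic factor BDNF, fell by 0.44 (SE 0.09). Gfra1, a receptor for glial cell line-derived factor, was at 62.4, 66.7, 69.7 and 66.5 FPKM in vehicle and 71.8, 71.7, 68.8 and 64.9 in cisplatin and did not pass (limma adjusted p = 0.529). The 2 rises were Egfr (log2 change 0.36, SE 0.10) and Tgfbr1 (log2 change 0.26, SE 0.07), receptors that many non-neuronal cells carry. Of 40 G protein-coupled receptor genes of sensory neurons and their partners, 6 fell (15%, against 7.98% of all genes). Only Ramp1 rose (2.5%, against 2.73%), and the median was -0.18. The opioid receptor genes Oprm1 (log2 change -0.62, SE 0.14) and Oprl1 (log2 change -0.73, SE 0.16) and the galanin receptor gene Galr1 (log2 change -0.83, SE 0.19) fell. Calcrl, with which Ramp1 forms the CGRP receptor, was at 28.7, 25.7, 17.5 and 22 FPKM in vehicle and 37.6, 30.6, 27.7 and 33.6 in cisplatin and did not pass (limma adjusted p = 0.0844).

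Neuropeptide genes had 4 of 23 lower (17.4%, against 7.98% of all genes) and 0 higher (median -0.36). Calca, which encodes CGRP, stood at 379, 346, 306 and 335 FPKM in vehicle and 197, 214, 239 and 269 in cisplatin (log2 change -0.58, SE 0.14). Ramp1, the gene for a part of the CGRP receptor, rose, and a link between the changes of Calca and Ramp1 was not tested. Pcsk2, which cleaves peptide precursors (log2 change -0.62, SE 0.14), and its chaperone Scg5 (log2 change -0.53, SE 0.11) fell. Nrtn, a growth factor that binds the receptor Gfra2, was higher in every cisplatin library than in any vehicle library, by a small gap, at 3.56, 4.67, 4.7 and 3.74 FPKM in vehicle and 6.42, 4.72, 6.53 and 6.5 in cisplatin, and missed the threshold (limma adjusted p = 0.0556).

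Energy genes fell more often than they rose, as did all tested genes (7.98% fell and 2.73% rose). The share that fell was 45.2% of ATPase and proton pump genes and 34.6% of glycolysis genes. It was 36.7% in the citric acid cycle list, 21.4% in the mitochondrial dynamics list and 13.7% of nuclear oxidative phosphorylation genes. Of 31 ATPase and proton pump genes 14 fell and 1 rose (median -0.19). Atp2b2, a calcium pump of neurons (log2 change -0.85, SE 0.17), and the vesicle proton pump subunits Atp6v1g2 (log2 change -0.80, SE 0.16) and Atp6v1a (log2 change -0.36, SE 0.08) fell. The rise was that of Atp1b2, the sodium pump subunit of glia, at 38.8, 37.5, 41 and 46.2 FPKM in vehicle and 49.6, 48.8, 53.2 and 50.2 in cisplatin (log2 change 0.30, SE 0.08). Fxyd6, a modulator of the sodium pump and the most abundant of the list, was at 823, 1005, 927 and 911 FPKM in vehicle and 1125, 1438, 1382 and 1019 in cisplatin, also apart between groups but not past the threshold (limma adjusted p = 0.0533). Glycolysis genes had 9 of 26 lower and 1 higher (median -0.16): Eno1, an enolase, fell by 0.28 (SE 0.06), and Hk2, an inducible hexokinase, rose, at 6.33, 5.25, 6.17 and 7.52 FPKM in vehicle and 8.88, 8.26, 7.64 and 8.44 in cisplatin (log2 change 0.38, SE 0.11). The most abundant, Gapdh, went from 1145 ± 49.2 to 987 ± 51.3 FPKM (SD, 4 libraries a group) and did not pass (limma adjusted p = 0.0606).

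Nuclear genes of oxidative phosphorylation had 7 of 51 lower and 0 higher (median -0.07), among them Ndufa10 of complex I (log2 change -0.33, SE 0.06) and Atp5d of the ATP synthase (log2 change -0.35, SE 0.07). Of 30 genes of the citric acid cycle and of mitochondrial biogenesis, 11 fell and 0 rose (median -0.17), with citrate synthase, Cs, at 82.7, 83.1, 80.0 and 87.9 FPKM in vehicle and 69.9, 71.8, 75.9 and 73.4 in cisplatin (log2 change -0.20, SE 0.05) and Idh3g of isocitrate dehydrogenase at 51.8, 52.7, 54.9 and 50.7 FPKM in vehicle and 43, 47.7, 46.3 and 44.1 in cisplatin (log2 change -0.21, SE 0.05). These changes were small but the groups were apart, as they were for Vdac1, the channel of the outer mitochondrial membrane (log2 change -0.32, SE 0.07). Of 28 genes of mitochondrial dynamics and mitophagy, 6 fell and 1 rose (median -0.10). Gdap1, a fission factor that is mutated in inherited neuropathy, fell by 0.68 (SE 0.13) and its paralog Gdap1l1 by 1.02 (SE 0.21), one of the largest falls. The mitophagy receptor Bnip3 (log2 change -0.34, SE 0.07) fell, and Chchd3, a scaffold of the inner membrane, rose (log2 change 0.26, SE 0.06). The 11 genes encoded by mitochondrial DNA had a positive change each (median 0.44, and 0.05 after quantile normalization) with 0 past the threshold. Mt-nd2 was at 873, 686, 1092 and 945 FPKM in vehicle and 1000.5, 1712, 1225 and 2011 in cisplatin, with cisplatin replicates 2 and 4 high.

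**Figure D4:**
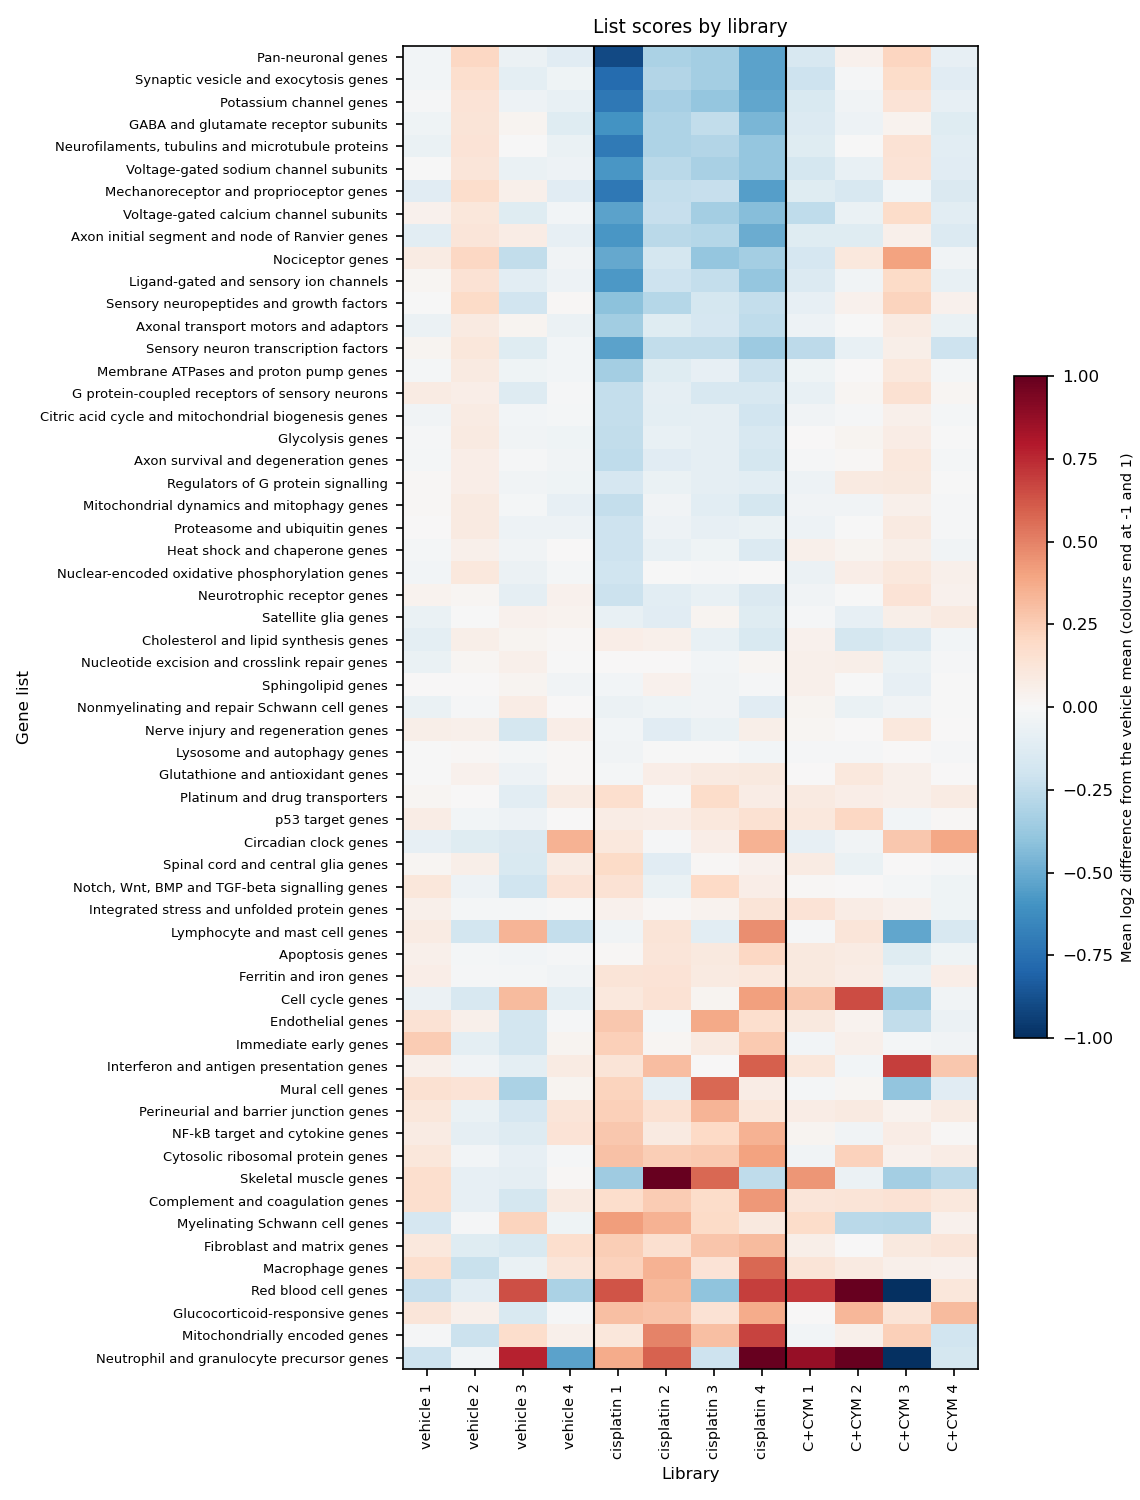
Score of each of 59 gene lists in each of the 12 libraries, averaged over its genes as log2 units from the vehicle mean (blue lower, red higher, colours end at -1 and 1). Cisplatin replicate 1 has the lowest pan-neuronal score (-0.90), and the red blood cell and neutrophil lists vary within every group.

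The cisplatin libraries differed among themselves in how low the neuronal genes were. The pan-neuronal score was -0.90, -0.32, -0.34 and -0.54 in cisplatin replicates 1 to 4 and -0.03, 0.20, -0.06 and -0.11 in vehicle replicates 1 to 4, so the groups did not overlap. Of the 24 pan-neuronal genes 19 fell (79.2%, against 7.98% of all genes) and 0 rose, and their summed level was 5649 to 7192 FPKM in vehicle and 3414 to 5057 in cisplatin.

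For 1543 genes with 2 or more tested transcripts, single transcripts could be set against each other. Of 18812 transcripts tested, 1595 (8.48%) were called by limma, 400 higher and 1195 lower. In 8 genes 1 transcript rose and another fell, 7 of them with a gene symbol. How FPKM divide among transcripts of 1 gene is an estimate made from shared reads, so these values are less certain than gene sums. Kif1b, a kinesin that carries mitochondria and synaptic vesicle precursors, fell as a gene (log2 change -0.35, SE 0.07). Its main transcript ENSRNOT00000041937 was at 133, 159, 136 and 126 FPKM in vehicle and 77.8, 103, 100.2 and 83 in cisplatin (log2 change -0.61, SE 0.10), and ENSRNOT00000042768 rose, at 36, 37.3, 40.3 and 40.0 FPKM in vehicle and 41.7, 47.3, 44 and 42.5 in cisplatin (log2 change 0.19, SE 0.05). Kif2a, a kinesin that trims microtubule ends, was not called as a gene (limma adjusted p = 0.212), while ENSRNOT00000019225 fell (log2 change -0.68, SE 0.15) and ENSRNOT00000019189 rose (log2 change 0.38, SE 0.10). In vehicle the transcript that fell was the more abundant of the pair, and in every cisplatin library the other one was.

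In the clathrin light chain gene Cltb, transcript ENSRNOT00000023651 was at 43, 55.8, 45.4 and 42.4 FPKM in vehicle and 20.8, 33.8, 30.6 and 37.6 in cisplatin (log2 change -0.62, SE 0.17), and ENSRNOT00000032402 at 52.5, 41.3, 52.8 and 61.5 FPKM in vehicle and 83.4, 81.7, 70.0 and 63.4 in cisplatin (log2 change 0.52, SE 0.12). The latter was the more abundant in every cisplatin library and in all vehicle libraries but replicate 2. Aplp2, a relative of the amyloid precursor, had ENSRNOT00000070818 higher (log2 change 1.40, SE 0.29) and both ENSRNOT00000074166 (log2 change -1.11, SE 0.24) and the main ENSRNOT00000074457 (log2 change -0.20, SE 0.05) lower. In Eif4g1, a translation initiation factor, ENSRNOT00000041777 fell (log2 change -0.81, SE 0.14) and ENSRNOT00000040029 rose (log2 change 0.35, SE 0.07). The microtubule-binding gene Eml1 and the endoplasmic reticulum gene Suco were the others. A further 84 genes had a transcript called without the gene being called. In Camk2d, a calcium-dependent kinase, ENSRNOT00000016026 was at 10.8, 10.4, 11.6 and 9.9 FPKM in vehicle and 4.61, 6.97, 7.05 and 4.8 in cisplatin (log2 change -0.84, SE 0.15), while ENSRNOT00000015564 did not pass (limma adjusted p = 0.0792).

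**Figure D5:**
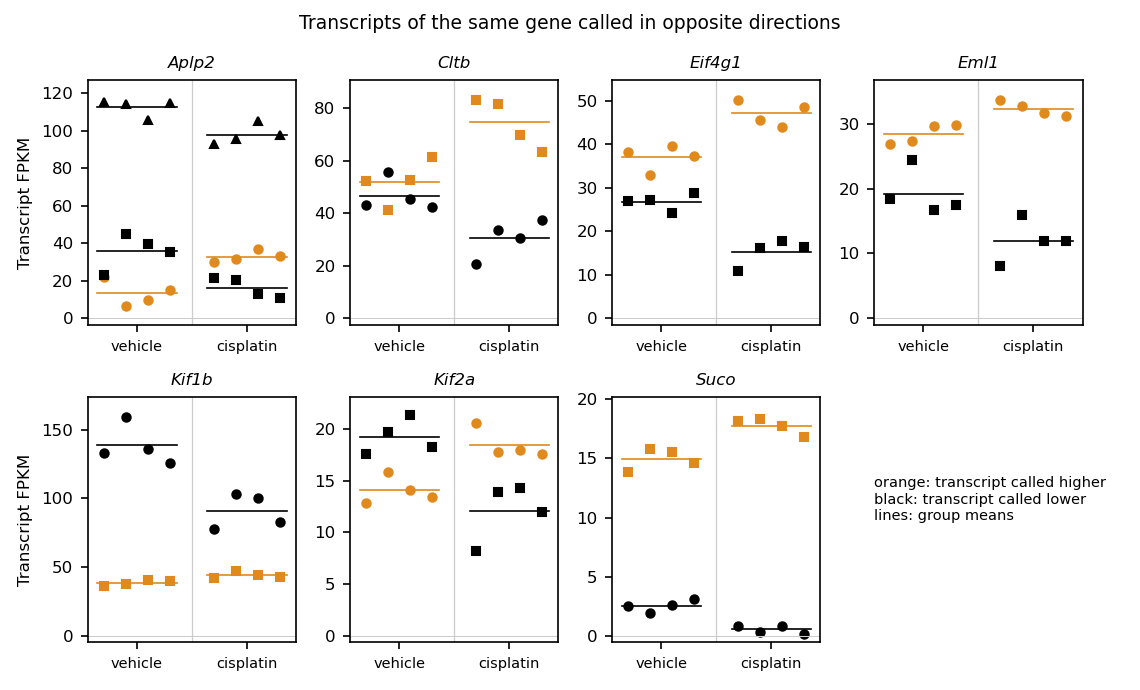
Transcript levels (FPKM) in the 4 vehicle and 4 cisplatin libraries for 7 genes with transcripts called in opposite directions, lines marking group means. In Kif2a the transcripts exchange order between the groups.

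Glial lists differed from each other. Of 24 satellite glia genes 4 fell (16.7%, against 7.98% of all genes) and 2 rose (8.33%, against 2.73%), with a median of -0.01. Glul, glutamine synthetase and a hallmark of satellite glia, was at 227, 192, 195 and 209 FPKM in vehicle and 245, 226, 234 and 239 in cisplatin, a small rise with overlapping groups (log2 change 0.20, SE 0.06). The matrix proteoglycan gene Bcan fell (log2 change -0.79, SE 0.21), with cisplatin replicate 3 inside the vehicle range, and the most abundant member Apoe went from 1760.3 ± 79.8 to 1580.3 ± 128 FPKM (SD, 4 libraries a group) and did not pass (limma adjusted p = 0.367). The glutamate transporter Slc1a3 was higher in each cisplatin library, at 10.3, 9.07, 7.5 and 9.89 FPKM in vehicle and 12.6, 10.6, 12.5 and 10.9 in cisplatin, without passing (limma adjusted p = 0.0522). All 25 myelinating Schwann cell genes had a positive change (median 0.27, and 0.15 with TPM). Only the scaffold gene Mpp6 passed (4%, against 2.73% of all genes), at 29.2, 28.7, 27.9 and 26.9 FPKM in vehicle and 35.2, 34.3, 35.6 and 34.4 in cisplatin (log2 change 0.30, SE 0.06). Of 19 genes of nonmyelinating and repair Schwann cells 4 fell (21.1%, against 7.98% of all genes) and 0 rose (median 0.02, and -0.09 with TPM). Among the 4 was the adhesion gene L1cam (log2 change -0.52, SE 0.10), which sensory axons also carry. Apod, a lipid carrier that is abundant in nerve sheaths, was at 2466, 1739, 1409 and 1880.5 FPKM in vehicle and 2431, 2629, 2344 and 2736 in cisplatin (limma adjusted p = 0.0601).

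Of 54 fibroblast and matrix genes 12 rose (22.2%, against 2.73% of all genes), 0 fell and 42 did not pass (median 0.28, and 0.16 with TPM). Col5a2, a fibrillar collagen, stood at 74.6, 69.7, 67.4 and 77.6 FPKM in vehicle and 93.8, 90.5, 96.3 and 107 in cisplatin (log2 change 0.42, SE 0.06). Col4a1, the basement membrane collagen, was at 122, 127, 149 and 143 FPKM in vehicle and 183, 170.1, 187 and 172 in cisplatin (log2 change 0.40, SE 0.07). Both were higher in every cisplatin library than in any vehicle library. Outside this list, Vcan, a space-filling proteoglycan, was at 8.03, 8.62, 7.85 and 9.23 FPKM in vehicle and 12.8, 10.4, 11.9 and 14.4 in cisplatin (log2 change 0.52, SE 0.09), Pamr1, a secreted protein, at 2.6, 2.32, 1.9 and 2.55 FPKM in vehicle and 3.7, 3.37, 3.62 and 3.67 in cisplatin (log2 change 0.53, SE 0.09), and Osr2, a transcription factor of mesenchyme, at 6.19, 5.97, 5.14 and 5.88 FPKM in vehicle and 8.55, 12.2, 8.17 and 9.83 in cisplatin (log2 change 0.68, SE 0.13). Uaca, at 26.4, 23.3, 25.6 and 27.9 FPKM in vehicle and 33, 35.1, 37.5 and 35.5 in cisplatin (log2 change 0.45, SE 0.06), and Spry1, a feedback inhibitor of growth factor receptors, at 13.2, 13, 14 and 13.1 FPKM in vehicle and 18.5, 16.4, 20.4 and 19.4 in cisplatin (log2 change 0.47, SE 0.08), were among the smallest p. Larger but more variable rises were those of Cyr61, a matrix signalling protein (log2 change 0.71, SE 0.19), Spon2, a matrix protein (log2 change 0.67, SE 0.16), Nexn, an actin-binding protein (log2 change 0.62, SE 0.15), Steap4, a metalloreductase (log2 change 0.60, SE 0.13), Cth, which makes cysteine (log2 change 0.59, SE 0.16), and Cck, a neuropeptide that the neuropeptide list did not hold (log2 change 0.74, SE 0.20). Enpp3, an enzyme that cleaves nucleotides outside the cell (log2 change 0.53, SE 0.08), and Mlec, a lectin of the endoplasmic reticulum (log2 change 0.30, SE 0.05), were among the 20 rises of smallest p. Skeletal muscle scores were highest in cisplatin replicates 2 and 3 (1.23 and 0.57), and none of the 21 muscle genes passed. Without both libraries 234 genes rose in place of 457, and 1384 fell in place of 1337. That fit holds fewer cisplatin libraries, and leaving out cisplatin replicate 1 alone gave 180 rises. A part of muscle in these rises was not tested.

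Of 19 perineurial and barrier junction genes 3 rose (15.8%, against 2.73% of all genes) and 0 fell (median 0.21, and 0.10 with TPM). Among the 3 was Tjp1, a tight junction scaffold, at 48.8, 43.5, 50.3 and 49.2 FPKM in vehicle and 61.7, 58.2, 64.5 and 58.3 in cisplatin (log2 change 0.34, SE 0.07). Of 27 endothelial genes 2 rose (7.41%, against 2.73% of all genes) and 0 fell (median 0.19, and 0.07 with TPM). The claudin Cldn5, which seals vessels, was one of the 2 (log2 change 0.34, SE 0.09). Among 21 mural cell genes, the pericyte proteoglycan Cspg4 rose (log2 change 0.35, SE 0.07) and the adhesion gene Mcam fell (log2 change -0.18, SE 0.05). Each is 4.76% of the list, where 2.73% of all genes rose and 7.98% fell. Apold1, an endothelial early response gene, and Cldn22, a claudin, were among the largest rises, at 5.1, 4.28, 3.6 and 3.15 FPKM in vehicle and 7.75, 6.17, 7.2 and 9.6 in cisplatin (log2 change 0.85, SE 0.16) and at 2.51, 2.1, 1.56 and 2.12 FPKM in vehicle and 4.61, 4.09, 5.27 and 3.17 in cisplatin (log2 change 0.89, SE 0.19). Of 37 genes of the Notch, Wnt, BMP and TGF-beta pathways, 2 rose (5.41%, against 2.73% of all genes) and 2 fell (5.41%, against 7.98%). Their median was 0.10, and -0.02 with TPM. The Notch ligand Jag2 fell, at 14.5, 17.1, 14 and 15.1 FPKM in vehicle and 8.23, 10.3, 10.6 and 8.77 in cisplatin (log2 change -0.65, SE 0.11). Nrarp, which Notch induces, fell too, and a link between the falls of Jag2 and Nrarp was not tested. Bambi, a decoy receptor of TGF-beta signalling, rose (log2 change 0.42, SE 0.09).

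Of 28 macrophage genes 3 rose (10.7%, against 2.73% of all genes) and 0 fell, while all 28 had a positive change (median 0.29, and 0.17 with TPM): Gpnmb, a gene of lipid-laden macrophages, at 8.43, 9.84, 8.72 and 10.1 FPKM in vehicle and 11.8, 12.1, 12.4 and 14.8 in cisplatin (log2 change 0.44, SE 0.12), the inhibitory Fc receptor Fcgr2b (log2 change 0.46, SE 0.13) and the scavenger receptor Msr1 (log2 change 0.53, SE 0.15). Of 28 NF-kB target and cytokine genes 4 rose (14.3%; median 0.24, and 0.13 with TPM), and Nfkb1, at 23.2, 22.2, 25.2 and 26 FPKM in vehicle and 28.7, 26.9, 27.7 and 31.7 in cisplatin (log2 change 0.25, SE 0.06), the adaptor Myd88 (log2 change 0.32, SE 0.09) and the feedback inhibitor Tnfaip3 (log2 change 0.30, SE 0.08) were 3 of them. Complement and coagulation genes had 3 of 30 higher (10.0%; median 0.27, and 0.15 with TPM): C1s, a protease that starts the complement cascade (log2 change 0.47, SE 0.13), Tfpi, an inhibitor of clotting (log2 change 0.43, SE 0.11), and F3, tissue factor (log2 change 0.42, SE 0.11). None of 39 interferon and antigen presentation genes passed by limma (median 0.20, and 0.11 with TPM). Neutrophil genes summed to 513 to 1396 FPKM in vehicle and 605 to 2348 in cisplatin, and 1 of 22 rose (4.55%, against 2.73% of all genes). Their part in the immune genes was not tested. The hemoglobin gene Hbb was at 1332, 3166, 2309 and 1712 FPKM in vehicle and 8736, 3874, 1691 and 9373 in cisplatin (limma adjusted p = 0.162), and S100a8, a neutrophil gene, at 396, 349, 645 and 258 FPKM in vehicle and 551, 507, 266 and 1051 in cisplatin (limma adjusted p = 0.696).

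Genes of DNA damage, the known action of cisplatin, passed the test in small numbers. Cdkn1a, the cell cycle inhibitor p21, stood at 5.08, 4.36, 3.49 and 5.96 FPKM in vehicle and 10.9, 7.49, 11.6 and 7.82 in cisplatin (log2 change 0.93, SE 0.23), with cisplatin replicates 1 and 3 highest. It also stands in the cell cycle and glucocorticoid-responsive lists, and the source of its rise was not tested. Of 30 glucocorticoid-responsive genes 2 rose (6.67%) and 0 fell (median 0.31, and 0.19 with TPM). Cdkn1a was 1 of 3 of 34 p53 target genes that rose (8.82%, against 2.73% of all genes). In that list 1 fell (median 0.09, and -0.03 with TPM). Zmat3, an RNA-binding p53 target, was the one that fell, at 14.8, 15.5, 13.3 and 14.1 FPKM in vehicle and 10.7, 11.8, 12.4 and 10.9 in cisplatin (log2 change -0.32, SE 0.06). Of 43 genes of nucleotide excision and crosslink repair, 3 rose (6.98%) and 1 fell (median -0.01). Cetn2, a partner of the damage sensor Xpc, was at 51.1, 62.5, 58.1 and 48.6 FPKM in vehicle and 73.7, 80.8, 68.7 and 69.8 in cisplatin (log2 change 0.41, SE 0.08), Xpc rose by 0.24 (SE 0.07) with overlapping groups, and the clamp Pcna rose by 0.28 (SE 0.08). Apex1, an endonuclease of base excision repair, fell (log2 change -0.24, SE 0.06). The efflux pump gene Abcb1b was at 0.413, 0.35, 0.143 and 0.628 FPKM in vehicle and 1.28, 0.945, 1.5 and 1.15 in cisplatin (log2 change 0.98, SE 0.23), low in all libraries but apart between groups. Abcc5, an exporter of organic anions, fell (log2 change -0.26, SE 0.06), and the other 20 of 22 transporter genes tested did not pass.

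Stress and clearance genes split by member. The share that fell was 20.5% of heat shock and chaperone genes and 5% of glutathione and antioxidant genes. It was 3.1% each for the integrated stress and apoptosis lists, against 7.98% of all genes. The share that rose was 7.5% of glutathione and antioxidant genes and 2.56% of heat shock and chaperone genes, against 2.73% of all genes. Of 40 glutathione and antioxidant genes 3 rose, all of them glutathione transferases, the enzymes that couple drugs to glutathione: Gstm2 was at 87.3, 78.2, 72.9 and 92.2 FPKM in vehicle and 102, 99.7, 112 and 104 in cisplatin (log2 change 0.34, SE 0.08), Gstp1 at 142, 143, 142 and 141 FPKM in vehicle and 159, 175, 158 and 194 in cisplatin (log2 change 0.26, SE 0.07) and Gstt1 rose by 0.40 (SE 0.11). The modifier subunit of glutathione synthesis Gclm (log2 change -0.22, SE 0.05) and the heme oxygenase Hmox2 (log2 change -0.31, SE 0.08) fell, and the list's median was 0.03, and -0.08 with TPM. Of 39 heat shock and chaperone genes 8 fell and 1 rose (median -0.09). Fkbp4, a co-chaperone of Hsp90, was at 91.2, 98.5, 91.4 and 93.1 FPKM in vehicle and 65, 75.4, 73.6 and 70.1 in cisplatin (log2 change -0.40, SE 0.06), and Hspa4l, an Hsp70 relative, and Dnajc6, which uncoats clathrin vesicles in neurons, fell by 0.39 (SE 0.06) and 0.61 (SE 0.12). Cryab, a small heat shock protein, rose, at 264, 278, 293 and 264 FPKM in vehicle and 412, 388, 349 and 314 in cisplatin (log2 change 0.41, SE 0.11). Of 32 genes of the integrated stress and unfolded protein responses, 1 fell and 0 rose: Asns, asparagine synthetase and a target of that stress response, at 24.5, 26.9, 25.8 and 24.5 FPKM in vehicle and 15.4, 20.0, 16.9 and 20.4 in cisplatin (log2 change -0.48, SE 0.09). Apoptosis genes likewise had 1 of 32 lower and 0 higher, with Bid, a death activator, at 13.1, 17, 14 and 14.6 FPKM in vehicle and 9.54, 11.3, 11.3 and 12.8 in cisplatin (log2 change -0.37, SE 0.10).

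Proteasome and ubiquitin genes had 4 of 31 lower (12.9%, against 7.98% of all genes) and 0 higher (median -0.10). Among the 4 were Uba1, which activates ubiquitin (log2 change -0.25, SE 0.06), Usp14, a deubiquitinase (log2 change -0.38, SE 0.09), and Psmd1, a proteasome subunit (log2 change -0.24, SE 0.05). Lysosome genes went both ways, with 3 of 35 higher (8.57%, against 2.73% of all genes) and 4 lower (11.4%, against 7.98%). Their median was 0.03, and -0.09 with TPM. Cd63, a membrane protein of lysosomes and exosomes, was at 289.8, 285, 265 and 287 FPKM in vehicle and 378, 368, 368 and 362 in cisplatin (log2 change 0.39, SE 0.07). Gm2a, a lysosomal gene outside the list that presents gangliosides for breakdown, was at 52.1, 44.8, 53.6 and 57 FPKM in vehicle and 69, 70.4, 70.6 and 73.5 in cisplatin (log2 change 0.45, SE 0.07). In contrast the abundant protease Ctsb was at 633, 639, 597 and 616 FPKM in vehicle and 496, 566, 529.9 and 529 in cisplatin (log2 change -0.23, SE 0.06). Each of these 3 genes was apart between groups. Tfeb, the transcription factor that drives lysosome genes, rose (log2 change 0.27, SE 0.07).

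Tested nerve injury genes showed no common rise: 3 of 21 fell (14.3%, against 7.98% of all genes) and 0 rose (median 0.02, and -0.10 with TPM). Of 30 members found, only these 21 reached the level for testing. Sprr1a, Vip, Nts, Ecel1, Reg3b and Il6 were among those that did not. The list was not split by the direction that injury gives each gene, and its lowest change was that of Nefl (-0.89). Atf3, which neurons switch on when their axons are cut, was at 10.3, 8.51, 9.49 and 10.6 FPKM in vehicle and 14.9, 8.49, 11.8 and 11.4 in cisplatin (limma adjusted p = 0.371). Cisplatin replicate 2 lay just below the vehicle range and replicate 1 furthest above it. Of 34 immediate early genes 1 rose (2.94%, against 2.73% of all genes). This was Gadd45b, at 10.5, 11.2, 10.7 and 7.59 FPKM in vehicle and 14.9, 13.6, 14.8 and 13.2 in cisplatin (log2 change 0.49, SE 0.12).

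Ribosomal protein genes had the largest share of rises, 19 of 59 (32.2%, against 2.73% of all genes) with 0 lower (median 0.26, against 0.02, and 0.14 with TPM). All 59 had a positive change. Rpl38 had the largest rise of the list, at 3267, 980.0, 1859 and 1124 FPKM in vehicle and 3655, 3639, 3587 and 2995 in cisplatin (log2 change 1.10, SE 0.30), but vehicle replicate 1 lay inside the cisplatin range. Rpl35a and Rpl37a, named for their size of change rather than as list members, were at 253, 241, 233 and 233 FPKM in vehicle and 301, 378, 364 and 403 in cisplatin (log2 change 0.58, SE 0.09) and at 210.2, 159, 162 and 154 FPKM in vehicle and 248, 349, 317 and 432 in cisplatin (log2 change 0.96, SE 0.21). Many near-identical copies of these genes share reads, so single values are uncertain. H1f0, a linker histone of nondividing cells, rose as well, at 59.3, 56.4, 63.4 and 50.8 FPKM in vehicle and 82.8, 76.6, 86.7 and 70.9 in cisplatin (log2 change 0.46, SE 0.08). RNA-binding proteins Msi2 (log2 change 0.42, SE 0.07), Taf15 (log2 change 0.48, SE 0.09) and Pnisr (log2 change 0.30, SE 0.05) were among the 20 rises of smallest p.

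Of the sphingosine 1-phosphate genes, Sgpp2, a phosphatase that removes this lipid signal, fell, at 21.6, 26.2, 21.5 and 20.7 FPKM in vehicle and 10.4, 14.6, 15.3 and 10.9 in cisplatin (log2 change -0.81, SE 0.14), and Acer2, a ceramidase that supplies its precursor, rose (log2 change 0.42, SE 0.10). In this list 3 of 38 fell (7.89%) and 1 rose (2.63%), near the shares of all genes (7.98% and 2.73%). The receptor gene S1pr2 was at 13.8, 12.5, 13.6 and 15.1 FPKM in vehicle and 17.2, 13.5, 14.6 and 17 in cisplatin (limma adjusted p = 0.23), S1pr1 at 9.61, 8.58, 6.33 and 6.96 FPKM in vehicle and 8.56, 9.27, 9.47 and 10.2 in cisplatin (0.194) and S1pr3 at 29.8, 27.3, 39.7 and 29.3 FPKM in vehicle and 33.5, 28.1, 25 and 24.8 in cisplatin (0.412). S1pr4, a receptor of blood cells, was at 1.34, 1.56, 2.68 and 1.39 FPKM in vehicle and 2.7, 1.97, 1.24 and 3.48 in cisplatin (0.551). Groups overlapped for all 4 receptor genes.

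Values of the libraries with cisplatin and CYM-5478 are given beside these. No test is reported, since such a contrast would share libraries with this one. Hcn2 was at 24.2, 24.7, 27.7 and 23.4 FPKM there, between vehicle and cisplatin. Nrarp, at 5.52, 5.1, 5.46 and 5.88, also lay between the other 2 groups. Asic1, at 24.4, 24.8, 26.1 and 24.4, lay within the vehicle range. Ramp1 was at 33.1, 33.3, 31.7 and 32.8, within it, and Lrp4 at 17.9, 18.2, 16.5 and 17.7, between the 2 groups. Col5a2 was at 78.1, 80.0, 80.9 and 82.4, close above the vehicle libraries. Cdkn1a was at 11.7, 13.9, 7.65 and 6.81, above the vehicle range in all 4 libraries. Most of these genes were chosen for their difference between vehicle and cisplatin. Other libraries can then lie between these 2 groups, or nearer vehicle, by that choice alone. The mean with CYM-5478 lay between the vehicle and cisplatin means in 1062 of the 1337 falls and 410 of the 457 rises, chosen likewise. No effect of CYM-5478 can be read from these positions.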

How the data were processed

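Ribosomal RNA-depleted, directional libraries were made from dorsal root ganglia, per the labels' protocols. The authors deposited FPKM per transcript, with no counts, so depth is unknown and no counting interval can be given. Per the submitters' processing notes, build Rnor_6.0, STAR 2.7.8a, Bowtie2 2.0.6, DESeq2, FastQC and bcl2fastq 2.20 were used, without roles or order. The program that made the FPKM and its filters are not given in the sources used here. The table is smaller than its listed size (4281212 against 8562426 bytes), so some transcripts may be not analysed here.

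FPKM were summed over the transcripts of each gene (30275 transcripts, 25252 genes) and scaled by 1 factor per library. Genes with a mean of at least 0.5 FPKM over 12 libraries (16753) were tested as log2(FPKM + 0.5) with limma 3.58.1 in R 4.3.3, with 3 groups of 4 libraries in 1 fit, 9 residual degrees of freedom and Benjamini-Hochberg adjustment at 0.05. The labels do not say that replicates came from separate rats, so p-values measure the spread between these libraries. Replicates are numbered as in the sample descriptions, which differ from the numbers in the titles. The fit was tested on simulated data.

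The text names the 20 genes of smallest p and the 20 of largest change in each direction with a mean of at least 1 FPKM, up to 3 members in each direction and the most abundant member of each list, and a few fixed genes. Not every such gene is described, and some are not reported here. A few genes outside the rule were added after their values were seen. The 59 lists hold 1713 different symbols, 1661 found as such, 6 under an older name and 46 not found. Of these symbols 1581 were tested. Some genes stand in more than 1 list, so their calls recur in several list counts. The comparison, the members and the lists were chosen with earlier results of these data known. Alternatives were other pseudocounts, filters, scalings, fits, replicate blocks and leaving out each library. Leaving out cisplatin replicates 2 and 3, of highest muscle score, was chosen after seeing the data. Promoters came from RefSeq on GRCr8, and no other coordinates are given.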

Additional observations from a re-analysis of the deposited data

Results flagged for a closer look

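In 21 of 386 groups of 4 libraries examined, 1 library lay far from the others. Chance flags about 1 in 20 groups where groups are independent. These groups share libraries, their genes were chosen from these data, and vehicle replicate 2 was flagged repeatedly. The number therefore cannot be set against chance.

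Vehicle replicate 2 was the highest library for neuronal and other genes that fell with cisplatin. It stood at 48.4 FPKM for Kcnd1 (the other 3 at 36.1 to 37.9), 93.1 for Napb, 58.3 for Dync1i1, 27.7 for Pou4f1, 156 for Ngfr, 83.3 for Scg5, 6.95 for Mdga2, 104 for Uba1 and 26.2 for Sgpp2. Without it the log2 change was -0.60 for Kcnd1, -0.64 for Napb, -0.61 for Dync1i1, -0.70 for Pou4f1, -0.59 for Ngfr, -0.47 for Scg5, -0.71 for Mdga2, -0.22 for Uba1 and -0.73 for Sgpp2, all of the same sign and with limma adjusted p of 0.0597 to 0.0922. Vehicle replicate 3 was low for Ptprn2 at 6.36 (others 7.26 to 7.43) and high for S1pr4 at 2.68, and vehicle replicate 1 was high for Rpl37a at 210.2.

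Among cisplatin libraries, replicate 4 was low for Ckmt2 at 0.177, Fgf14 at 6.66 and Rpl38 at 2995. Replicate 1 was low for Tppp3 at 224 (others 292 to 299) and high for Mcam at 74.3. Replicate 3 was high for Ntrk2 at 18.3, Abcc5 at 49.5 and Gclm at 35.3, and replicate 2 was low for Nrtn at 4.72.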

How the results depend on the processing

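The count of genes called was 1794, and stayed between 1456 and 1975 with pseudocounts of 0.1 and 1, no filter or one of 2 FPKM, no scaling, quantile normalization, array weights, robust variances and single transcripts in place of gene sums. With TPM 3294 genes were called (117 higher, 3177 lower) and 3234 transcripts. With the 8 libraries alone, which leaves fewer residual degrees of freedom, it was 961 (223 higher, 738 lower) and 250 transcripts. Leaving out 1 library gave 0 to 1847 genes, 0 to 466 higher, 0 to 1389 lower and 4 to 1585 transcripts. Counts moved most without vehicle replicate 2 (3 genes, 14 transcripts), vehicle replicate 3 (1167, 796), cisplatin replicate 1 (643, 431) and cisplatin replicate 4 (0, 4), and without cisplatin replicate 3 there were 293 higher. Without cisplatin replicates 2 and 3 the count was 1618, with 234 higher and 1384 lower. A replicate block on the description numbers gave 1881 genes. A replicate block on the title numbers, of which vehicle and cisplatin share 2, gave 0 genes, 0 higher, 0 lower and 0 transcripts by limma (2535 genes at an unadjusted p under 0.05). Title number 2 belongs to vehicle replicate 2 alone, so this block takes that library out of the comparison. Leaving out that library without any block gave 3 genes, as above. The title block also leaves fewer residual degrees of freedom than the main fit. Pairing by number was examined only between vehicle and cisplatin libraries. Correlations of deviations were 0.0211, 0.0994, -0.116 and -0.0803 for equal description numbers, and 0.0211 and 0.0191 for equal title numbers. Pairs with the libraries given CYM-5478, which the title block also joins, were not examined. Whether title numbers mark a batch was not tested. All called genes that could be tested kept their sign in every setting, but they were chosen on the same libraries that these settings reuse. Of single-gene values in the text, 3847 kept direction and side of the threshold, 913 lost it, 46 gained it and 14 changed sign, all in genes that were not called. The latter were Kcna1 (0.0175 with the title replicate block, and -0.167 to 0.0217 leaving out 1 library, above 0 without cisplatin replicate 4), Kcnk1 (-0.0434 with TPM and -0.0425 without cisplatin replicates 2 and 3), Scn7a (-0.150 to 0.0422 leaving out 1 library, above 0 without vehicle replicate 3), Gfra1 (-0.0572 with TPM) and S100a8 (-0.201 with the title replicate block). Sncg was at -0.110 with TPM, -0.207 with quantile normalization, -0.00939 with the title replicate block, -0.0510 without cisplatin replicates 2 and 3, and -0.0886 to 0.150 leaving out 1 library, below 0 where vehicle replicate 3 was left out, and where cisplatin replicate 2 (-0.0358) or 4 was. The cause was not tested for any of these. Of list medians, 1426 moved by less than the spread and 49 by more.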

Other observations

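Regulators of G protein signalling, which shorten the response to G protein-coupled receptors, had 2 of 19 members lower (10.5%) and 1 higher (5.26%). Over all genes 7.98% were lower and 2.73% higher, and the list's median log2 change was -0.12. Rgs6 fell by 0.57 (SE 0.16) and Rgs7bp, which anchors its relatives at the membrane, by 0.45 (SE 0.12), both with overlapping groups. Rgs1, a gene of immune cells, was at 1.72, 1.45, 2.12 and 1.44 FPKM in vehicle and 4.56, 3.35, 2.44 and 5.13 in cisplatin. Of 22 circadian clock genes 1 fell (4.55%, against 7.98% of all genes), the clock kinase Csnk1d, by 0.21 (SE 0.05). Of 14 iron genes 1 fell (7.14%), the ferrireductase Steap3, by 0.30 (SE 0.08). Of 45 cell cycle genes 2 rose (4.44%, against 2.73% of all genes), Pcna and Cdkn1a, and 0 fell.

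Some genes were listed at 0 in every library of 1 group, and were chosen after their values were seen. The cisplatin libraries held AABR06078903.1 at 13.3, 13.9, 20.0 and 18.3 FPKM, while each vehicle library listed it at 0. Within the third group, also given cisplatin, it was at 18.7, 0, 18.5 and 21.3, so 1 library of that group listed it at 0 beside high values. In the long noncoding gene Rn50_1_1362.2 all cisplatin libraries were listed at 0, vehicle libraries stood at 1.1, 2.26, 0.935 and 1.94 FPKM, and those of the third group at 0, 1.28, 0 and 0.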
